A study of Mus musculus with 6 samples.

Results

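*Ppp1r1a* and *AI314760* were examined in the cerebral cortex of senescence-accelerated mice, where each is read by 1 of the 45077 probe sets of the array, out of 22527 gene symbols. Each probe set combines several short probes against a transcript into a single signal. Both genes were selected on these same measurements, by their low group means in SAMP8, so their strain difference is a description and not a finding. All probe sets that carry either symbol were taken, and these were 2. The 6 mice were male and 16 weeks old per the labels, with 2 mice in each of 3 groups and 1 array per mouse. As the paper describes it, acclimatization, administration and tests followed that age, and the age when the cortex was taken is not given. Water was given to SAMR1, a related strain that resists accelerated senescence and serves as its control. SAMP8, the senescence-prone strain with early learning and memory deficits, received water (SAMP8 control) or the sugarcane top ethanolic extract STEE, given by mouth at 20 mg/kg (STEE-fed SAMP8). Administration ran for 30 days and through the following 8 days of water maze tests, mice of all 3 groups were housed individually, and BrdU was supplied in the drinking water for part of that time. The strains differ throughout the genome, so a difference between them cannot be tied to senescence, and 2 mice stand for each group.

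*Ppp1r1a* encodes inhibitor-1, a small inhibitor of protein phosphatase 1 (PP1), the enzyme that removes phosphate from many synaptic proteins. Inhibitor-1 blocks PP1 after cAMP-dependent protein kinase (PKA) has phosphorylated it, and the calcium-activated phosphatase calcineurin takes that phosphate off again. In neurons this switch links cAMP and calcium signals to PP1 and is best known from work on synaptic plasticity. *AI314760* is listed on the array only as an expressed sequence, and no role is given for it here.

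Values were the authors' mean log2 signals of each group. No value of a single mouse was used, so no spread between mice, standard error or test accompanies any difference below, and the 2-decimal rounding of the means alone allows an error of 0.01 in a difference. With so few arrays, the precision of each mean is limited.

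*Ppp1r1a* had a mean log2 signal of 7.96 in SAMR1, against 6.02 in SAMP8 control and 5.99 with STEE. Both SAMP8 groups were thus far below SAMR1 and close to each other. The difference of SAMP8 control from SAMR1 was -1.94 on the log2 scale, a signal 3.84-fold lower, or 26.1% of that in SAMR1. In bulk cortex, fewer cells that express the gene and less RNA per cell cannot be told apart.

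*AI314760* had a mean log2 signal of 8.87 in SAMR1, against 6.91 in SAMP8 control and 6.74 with STEE. The order of the groups was the same as for *Ppp1r1a*. SAMP8 control differed from SAMR1 by -1.96 on the log2 scale, which is 3.89-fold lower and leaves 25.7% of the SAMR1 signal. The strain differences of both genes were 0.02 apart, which is within the rounding of the means.

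**Figure D1:**
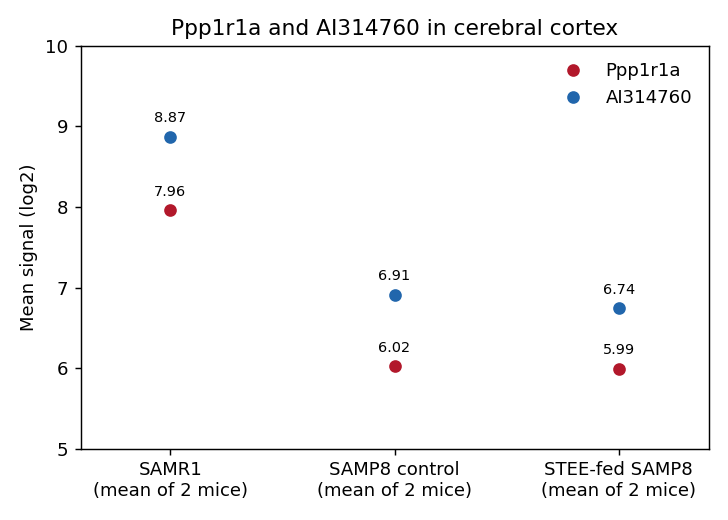
Mean log2 signal (vertical axis, from 5 to 10) of *Ppp1r1a* and *AI314760* in the 3 groups; each point is the authors' mean of 2 mice, with no error bar because no value per mouse was used. *Ppp1r1a* stood at 7.96 in SAMR1 against 6.02 and 5.99 in the SAMP8 groups, and *AI314760* at 8.87 against 6.91 and 6.74.

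Across the array, the median absolute log2 difference between SAMP8 control and SAMR1 was 0.07, and 95% of that distribution lay within 0.30. A signal lower by 2-fold or more in SAMP8 control was found for 61 probe sets, 0.135% of all, and both members were among them, which their selection fixes. Counting the genes themselves, 12 probe sets were lower by at least as much as *AI314760* and 13 by at least as much as *Ppp1r1a*. Among the 8925 probe sets with a mean signal within 1 log2 unit of *Ppp1r1a*, 4 were as low, and among the 6841 near *AI314760*, 5 were.

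The STEE-fed SAMP8 mice are a second pair of SAMP8 mice, set here against the same SAMR1 arrays. *Ppp1r1a* differed from SAMR1 by -1.97 on the log2 scale in these mice, 3.92-fold lower. *AI314760* differed by -2.13, 4.38-fold lower. In this comparison 58 probe sets, 0.129% of all, were lower by 2-fold or more, and both genes were again among them. The group means of these mice were among the values that chose both genes and the SAMR1 mice are shared, so this comparison is a description as well.

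STEE-fed SAMP8 was then set against SAMP8 control. Both of these group means were among the values that chose the genes as low in SAMP8, so a small difference between them is also only a description. *Ppp1r1a* differed by -0.03 on the log2 scale, which left 97.9% of the signal in SAMP8 control. A difference of that size or larger, in either direction, was seen in 76.9% of all probe sets. *AI314760* differed by -0.17, which left 88.9% of the signal, and 9.86% of all probe sets differed by as much. Neither gene was past 1.2-fold, a level that 1.03% of the probe sets exceeded upward and 0.976% downward with STEE. Both differences pointed away from the SAMR1 level and came to 1.5% of the strain difference for *Ppp1r1a* and 8.7% for *AI314760*. Whether either differs from 0 was not tested, since group means alone were used.

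**Figure D2:**
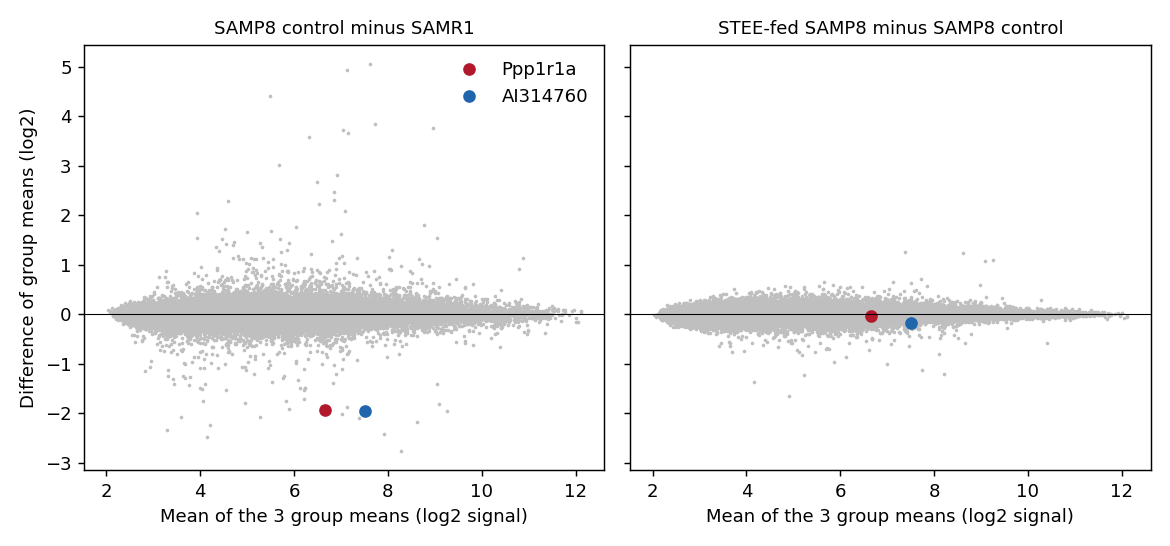
Difference of group means (vertical axis, log2) against the mean of the 3 group means (horizontal axis, log2 signal) for all 45077 probe sets (grey), with SAMP8 control minus SAMR1 on the left and STEE-fed SAMP8 minus SAMP8 control on the right. *Ppp1r1a* (-1.94) and *AI314760* (-1.96) lie at the lower edge on the left, and at -0.03 and -0.17, inside the grey cloud, on the right.

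Because each gene has a single probe set, its strain difference cannot be checked against another part of the transcript. How often such a check holds elsewhere on this array was therefore counted. Of the 40 genes with a probe set of a single symbol that was lower by 2-fold or more in SAMP8 control than in SAMR1, 28 had several probe sets and 12, including both genes here, had 1. In 5 of the 28 a further probe set was also lower by 2-fold or more, and in 23 none was. No lower limit on signal was set for the further probe sets, and a 2-fold fall could hardly be seen at a low signal. The 23 therefore do not tell how often such a check fails.

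The same question was put to the genes with the most similar pattern. Likeness was measured as the Euclidean distance between the 3 group means after each probe set had been centred on its own mean, over 38128 probe sets with 1 symbol. With only 3 points of means per gene, and a pattern dominated by the strain difference, the distances are a description. The 5 nearest genes were the same for *Ppp1r1a* and *AI314760*, namely *Kif5b*, *Zc2hc1a*, *Klf12*, *A430102J17Rik* and *Vcp*. *Kif5b*, the heavy chain of a kinesin motor that carries cargo along microtubules, was nearest to *Ppp1r1a*, at a distance of 0.05. *A430102J17Rik*, like *AI314760* known only by a clone name, was nearest to *AI314760*, at 0.043. The distance between *Ppp1r1a* and *AI314760* was 0.123.

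*A430102J17Rik* followed *AI314760* closely, with mean log2 signals of 7.22 in SAMR1, against 5.30 in SAMP8 control and 5.15 with STEE. Its strain difference was -1.92 and its difference with STEE was -0.15, and it too has a single probe set. *Kif5b* was 8.37 in SAMR1 and 6.36 in both SAMP8 groups at the probe set that resembled *Ppp1r1a*, a difference of -2.01. The other 5 *Kif5b* probe sets differed between the strains by -0.17 to 0.02.

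*Vcp*, an ATPase that extracts proteins for degradation, was 4.96 in SAMR1 at the probe set concerned, against 2.89 in SAMP8 control and 2.91 with STEE. Its other probe set was 9.50 in SAMR1 and 9.48 in SAMP8 control. For *Kif5b* and *Vcp* the low signal in SAMP8 was thus seen at 1 probe set and not at the others of the gene.

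*Klf12*, a zinc finger transcription factor, had 2 probe sets lower in SAMP8 control, by -1.86 and -1.80, and 3 others that differed by -0.07 to 0.24. *Zc2hc1a*, which encodes a zinc finger protein, had 2 probe sets lower by -1.88 and -1.72 and 1 that differed by 0.07. No gene among these with several probe sets was low at all of them. *Klf12* probe sets at 3.64 and 3.42 in SAMR1, and a *Kif5b* probe set at 3.67, lay below the array median of 4.16. A lower signal could hardly be seen at these, while the other unchanged probe sets stood at 7.48 or above in SAMR1. Which of the genes with several probe sets *Ppp1r1a* and *AI314760* resemble cannot be told from 1 probe set each.

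**Figure D3:**
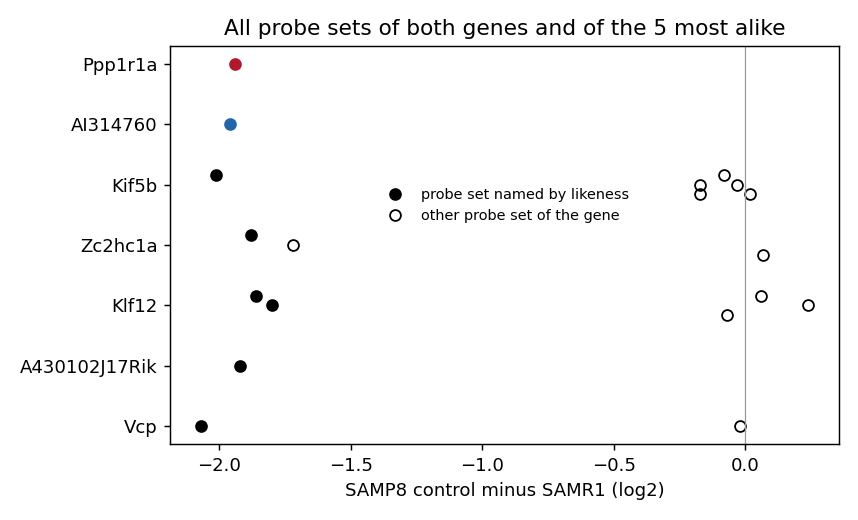
SAMP8 control minus SAMR1 (horizontal axis, log2) at every probe set of *Ppp1r1a*, *AI314760* and the 5 genes most alike; filled points are both genes and the probe sets named by likeness, open points the other probe sets of the same gene, shifted vertically where they would overlap. The filled points lie between -2.07 and -1.80, and all open points but 1 lie between -0.17 and 0.24.

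The RefSeq gene order of the mouse gave the neighbours of *Ppp1r1a*, of which 5 on the one side and 3 on the other were measured before the listing of the chromosome ended. Each was read from its probe set with the highest mean signal. *AI314760* was not matched there, so its neighbours were not examined. *Pde1b*, a calcium- and calmodulin-dependent phosphodiesterase that breaks down cyclic nucleotides, lies directly beside *Ppp1r1a*. Its mean log2 signal was 8.43 for SAMR1, 8.63 for SAMP8 control and 8.62 for the STEE-fed group, a strain difference of 0.20 in the opposite direction. On the other side, *Glycam1*, which encodes an endothelial ligand of L-selectin, differed by -0.17 between the strains.

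The remaining neighbours, *Nckap1l*, *Gtsf1*, *Itga5*, *Zfp385a*, *Mucl1* and *Mucl2* (listed under its older name *Spt1*), differed by between -0.11 and 0.02. Of the 8 neighbours, 0 were past 1.2-fold in either direction for SAMP8 control vs. SAMR1, where 3.68% of all probe sets were higher and 3.43% lower by that much. A count of 0 among 8 genes is near that background. In SAMR1, 5 of the 8 lay below the array median of 4.16, where a lower signal could hardly be seen.

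**Figure D4:**
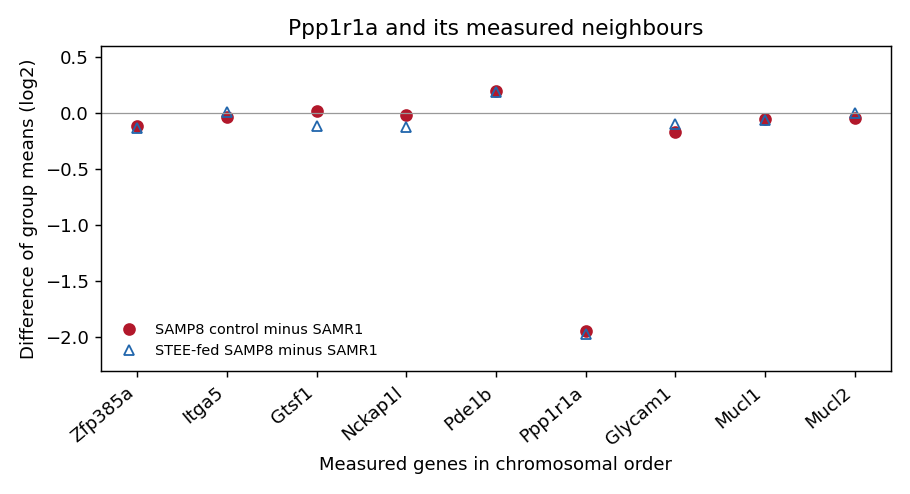
Difference of group means (vertical axis, log2) for *Ppp1r1a* and its 8 measured neighbours in chromosomal order, for SAMP8 control minus SAMR1 (filled circles) and STEE-fed SAMP8 minus SAMR1 (open triangles). *Ppp1r1a* lies at -1.94 and -1.97, and the neighbours lie between -0.17 and 0.20.

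The genes that act with inhibitor-1 were taken from 7 lists, covering the catalytic subunits, inhibitors and targeting subunits of PP1, PKA, calcineurin, the enzymes that make and break down cAMP, and PP1 substrates with related kinases. Of 57 listed genes 56 were measured, each read from its probe set with the highest mean signal. Between SAMP8 control and SAMR1, 5 were higher and 1 was lower by 1.2-fold or more, against 3.68% and 3.43% of all probe sets. When the probe sets of a gene were averaged, 8 were higher. The median log2 difference of the 56 was 0.08, against 0.00 over all probe sets. With STEE against SAMP8 control 1 was higher and 0 were lower, near the 1.03% and 0.976% of all probe sets, with a median of 0.01 against 0.00.

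For STEE-fed SAMP8 vs. SAMR1, 8 of the 56 were higher and 1 was lower, against 4.6% and 3.25% of all probe sets. Most of the listed genes were thus within 1.2-fold of their SAMR1 level in both SAMP8 groups, though more were higher than lower. The counts were 35 against 17 in SAMP8 control and 43 against 13 in STEE-fed SAMP8. In the latter the median difference was 0.09, against -0.01 over all probe sets. How many of all probe sets were higher or lower by any amount was not counted, so nothing is read from this split. The listed genes had a mean log2 level of 7.94 in SAMR1, against an array median of 4.16. All probe sets are thus not a like background for them. *Ppp1r1a* stood at 26.1% and 25.5% of its SAMR1 level, a contrast that its selection for a low signal fixes.

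Among the 9 other PP1 inhibitors, those past 1.2-fold between the strains pointed in opposite directions. *Ppp1r1b* encodes DARPP-32, the closest relative of inhibitor-1 and the form typical of striatal projection neurons. Its mean log2 signal was 7.13 in SAMR1, against 8.00 in SAMP8 control and 7.97 with STEE, so that it was higher in SAMP8 control by 0.87, opposite to *Ppp1r1a*. *Ppp1r14a*, which encodes CPI-17, an inhibitor of myosin phosphatase activated by protein kinase C, was 6.12, 5.17 and 5.10 in the same order of groups. It was thus lower in SAMP8 control by -0.95 and unlike *Ppp1r1b* shared the direction of *Ppp1r1a*. The other 7, among them *Ppp1r2* (inhibitor-2) and *Ppp1r8*, a nuclear inhibitor, differed by -0.14 to 0.09, though another probe set of *Ppp1r2* was higher by 0.40.

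The catalytic subunits that inhibitor-1 acts on showed no such gap. *Ppp1ca* was 9.21 in SAMR1 and 9.38 in both SAMP8 groups. *Ppp1cb* and *Ppp1cc* differed between the strains by 0.10 and 0.19, all 3 slightly higher in SAMP8 control. The other probe set of *Ppp1cc* was higher by 0.36. Of 11 measured targeting subunits, *Ppp1r3d*, which directs PP1 to glycogen, was past 1.2-fold between the strains at the probe set read, higher by 0.38. *Ppp1r3c* was higher by 0.25 at the probe set read and by 0.61 at its other one. With STEE, *Ppp1r10*, a nuclear targeting subunit, was higher by 0.40 at a probe set that also carries the symbol *Gm8801*.

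The kinase and the phosphatase that set the state of inhibitor-1 were likewise close between the strains at the probe sets read. Other probe sets went further, *Prkacb* up to 0.49 and *Ppp3cb* down to -0.41. The PKA catalytic subunits *Prkaca* and *Prkacb* differed by -0.10 and 0.18. *Akap5*, the anchor that holds PKA and calcineurin at synapses, was higher in SAMP8 control by 0.36, and by 0.19 when its 3 probe sets were averaged. The regulatory subunit *Prkar2b* was higher by 0.34 in STEE-fed SAMP8 than in SAMR1. The calcineurin catalytic subunits *Ppp3ca*, *Ppp3cb* and *Ppp3cc* differed by 0.19, 0.10 and -0.04. *Rcan1*, a regulator of calcineurin, was 0.28 higher in STEE-fed SAMP8 than in SAMR1.

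Among 12 enzymes of cAMP synthesis and breakdown, *Pde10a*, a phosphodiesterase of striatal neurons, was 0.61 higher in SAMP8 control than in SAMR1. The adenylyl cyclase *Adcy2* was 0.31 higher in the same comparison, and *Adcy5*, another cyclase, was 0.35 higher in STEE-fed SAMP8 than in SAMR1. Averaged over its 4 probe sets, *Adcy5* was higher by 0.11, and the lowest of these differed by -0.02. The 7 substrates and kinases, among them the AMPA receptor subunit *Gria1* at -0.16 and the calcium-dependent kinase *Camk2a* at 0.01, were within 1.2-fold in every comparison at the probe set read. Other probe sets went further between the strains, *Camk2a* down to -0.57 and *Cdk5r1*, an activator of the kinase *Cdk5*, up to 0.56.

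**Figure D5:**
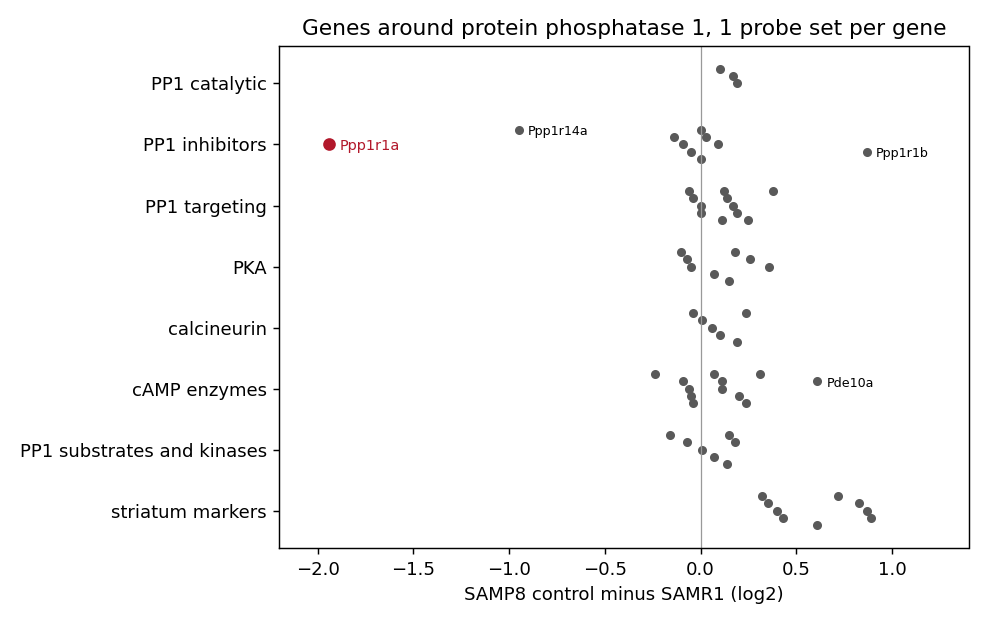
SAMP8 control minus SAMR1 (horizontal axis, log2) for each measured gene of the 7 lists around PP1 and of the striatum markers, 1 point per gene at its probe set with the highest mean signal, spread vertically within a list to separate the points. *Ppp1r1a* lies at -1.94, *Ppp1r14a* at -0.95 and *Ppp1r1b* at 0.87, and all striatum markers lie at 0.32 or above.

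The cortical label was checked against marker genes. The excitatory cortical markers *Slc17a7* and *Tbr1* had mean log2 signals of 7.05 and 8.12 in SAMR1 and 7.10 and 8.28 in SAMP8 control. The 11 cortex markers had a median strain difference of 0.05, with 1 higher by 1.2-fold or more and 1, *Cux2* at -0.27, lower. With STEE, 3 of the 11 were higher than in SAMP8 control by that much, against 1.03% of all probe sets. Among these, *Tbr1* was higher by 0.29 and *Cux2* by 0.30 at the probe set read. Averaged over its 3 probe sets, *Cux2* differed by -0.18 between the strains and by 0.11 with STEE. Markers of other regions differed with strain alongside both genes, and their counts below stand against 3.68% of all probe sets higher and 3.43% lower by 1.2-fold or more. All 9 of the 9 striatum markers were higher in SAMP8 control by 1.2-fold or more, with a median difference of 0.61 and a mean log2 level of 7.72 in SAMR1, against 8.32 in SAMP8 control and 8.38 with STEE. The dopamine receptor *Drd1* (*Drd1a* on the array) was highest among them, at 0.89, and *Ppp1r1b* and *Pde10a* belong to this list as well.

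Other regional markers were lower in SAMP8 control by 1.2-fold or more, as *Ppp1r1a* and *AI314760* were. These were 4 of 6 markers of the dentate gyrus, *Dsp* at -0.56 and *Lct* at -0.42 among them, with a median difference of -0.36 and a mean level of 4.01 in SAMR1 and 3.69 in SAMP8 control. *Dsp* and *Lct* stood at 3.86 and 3.62 in SAMR1, below the array median of 4.16, and the rest of the 4 lay above it. Of the thalamus markers 2 of 4 were lower, *Tcf7l2* by -0.97 and *Prkcd* by -0.78, and the mean level was 5.78 in SAMR1 and 5.30 in SAMP8 control. Of 6 choroid plexus markers 3 were lower, led by *Ttr* at -1.96, which was 1.09 higher again with STEE, unlike both genes here. The rest of these 3 lay below the array median in SAMR1. The 3 blood markers differed by -0.08 to 0.08, and of 7 markers of glia and vessels 1 was past 1.2-fold at the probe set read, *Cldn5* of endothelium at -0.28. The myelin gene *Mbp*, at -0.15 there, was lower in SAMP8 control at all 8 of its probe sets, by -0.35 on average and down to -0.66. The part of tissue makeup in the low signal of *Ppp1r1a* and *AI314760* was not tested.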

How the data were processed

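Cortical RNA of each mouse was measured on an Affymetrix mouse expression array. The authors summarised probe intensities by RMA in Affymetrix Expression Console and averaged the 2 arrays of each group in Transcriptome Analysis Console. These log2 averages were deposited to 2 decimals. They are labelled bi-weight averages and are called means here. The genome build is not given in the sources used here. Columns of the authors' own comparisons (linear fold changes, ANOVA p-values and FDR p-values) were also deposited and were not used, which leaves no spread between mice and no test. The SAMP8 control means were identical in both tables.

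Differences of group means, counts past a fold threshold, distances between centred means and list medians were computed with Python 3.11.15, numpy 2.4.6 and pandas 2.3.3, and the figures with matplotlib 3.10.9. Counts and distances were tested on simulated data. A fold of 2 was used for the strain and 1.2 for lists and STEE. Where a gene had several probe sets, that with the highest mean over groups stood for it. Named genes were the probe sets of both members, the 5 genes most alike to each, up to 5 measured neighbours on each side, the list genes past 1.2-fold in a comparison or the largest of these, and the catalytic subunits of PP1, PKA and calcineurin; *Ppp1r2*, *Ppp1r8*, *Gria1*, *Camk2a* and *Slc17a7* were added, after their values were seen, where a list is described. The values of 1 marker gene are not reported here. Symbols and gene order came from the RefSeq table of GRCm38.p6, which matched 1 of the 2 members. Members and lists were chosen with earlier results of these data known. Alternatives were other probe sets, centring, quantile normalisation, a linear scale, other folds and a filter on signal.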

Additional observations from a re-analysis of the deposited data

How the results depend on the processing

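Over 36 alternative values of the differences of *Ppp1r1a* and *AI314760*, 0 reversed, 25 stayed within the 0.01 that rounding allows, and 11 moved further. The 25 include the settings for other probe sets and for the identical SAMP8 control mean of the STEE comparison, which could not change a value. All 11 that moved came from quantile normalisation or from 8 added to the linear signal. With quantile-normalised group means, SAMP8 control minus SAMR1, STEE-fed SAMP8 minus SAMP8 control and STEE-fed SAMP8 minus SAMR1 were -1.96, -0.05 and -2.01 for *Ppp1r1a* and -1.98, -0.19 and -2.17 for *AI314760*. With 8 added to the linear signal, the strain differences were -1.82 and -1.84 for *Ppp1r1a* and -1.89 and -2.05 for *AI314760*, whose STEE difference was -0.16. Probe sets lower by 2-fold or more numbered 61, 6 and 58 in the 3 comparisons, by 1.5-fold 167, 26 and 185, and by 3-fold 21, 1 and 21. Genes around PP1 higher by 1.2-fold numbered 8 for the strain when probe sets were averaged. At 1.5-fold they numbered 2 for the strain, 0 with STEE and 2 for STEE-fed SAMP8 vs. SAMR1. Alternative probe sets could not alter the members, which have 1 each. The labels give no pairs of mice across the groups, so a paired analysis did not apply. No mouse could be left out, because the means used carry no replicate.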
